A study of Mus musculus with 3 samples.

Results

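The mTOR pathway genes described here are 9 genes of the 20823 with an annotated 5′ UTR, CDS and 3′ UTR: Mtor, Rptor, Rictor, Mlst8, Akt1s1, Tsc1, Tsc2, Rheb and Rps6kb1. They were taken by gene symbol, with earlier results of these data known, and the rule uses no measured value. Ribosome footprints, the mRNA fragments that ribosomes shield from nuclease, were sequenced from primary cortical neurons of CD-1 mouse embryos in 3 libraries, 1 per treatment, each from 3 pooled dishes. WT neurons had no drug before harvest, Chx neurons had cycloheximide, which stops elongating ribosomes, for 2 min, and Harr neurons had harringtonine, which holds ribosomes at start codons while elongating ones run off, for 2 min and then a cycloheximide pulse. All 3 lysates, WT included, were made in buffers with 100 μg per ml cycloheximide. With 1 library per treatment no difference has a replicate check, every interval covers counting error only, and the comparisons share libraries.

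mTOR is a kinase that couples nutrients and growth factors to protein synthesis, and in neurons it is known for its part in dendrite growth and synaptic plasticity. It works in a pair of complexes. In mTORC1, Rptor (raptor) brings substrates to the kinase and Akt1s1 (PRAS40) inhibits it; in mTORC2, Rictor takes the scaffold role; Mlst8 binds the kinase in both. Rheb is the small GTPase that switches mTORC1 on, the Tsc1–Tsc2 complex switches Rheb off, and Rps6kb1 encodes S6 kinase 1, a substrate of mTORC1. These data hold footprints only, so a level here joins mRNA abundance and ribosome load, and in a bulk culture fewer cells of a type cannot be told apart from less RNA per cell.

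The 9 genes took 15199, 4985 and 11074 reads in Chx, Harr and WT, which is 0.0674%, 0.0824% and 0.0609% of the reads placed on the chosen transcripts. The Harr library was the shallowest, with 9754412 aligned reads against 35722483 in Chx and 30219197 in WT. The neuronal label was checked against 8 neuronal markers, none of which was at 0 in any library and whose summed CDS level was 4166 to 4906 reads per 1000000. The 4 astrocyte markers summed to 195 (Chx), 78.8 (Harr) and 213 (WT) reads per 1000000, the 4 microglial markers to at most 2.80 and the 4 oligodendrocyte markers, 2 of them at 0, to at most 6.52. The part of other cell types in the levels below was not tested.

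Per the file headers, reads were assigned by the position of their 5′ end. A ribosome poised on a start codon covers bases on both sides of it, so its read is counted upstream, in the 5′ UTR. The bases around the start codons are therefore shown for the genes whose 5′ UTR reads carry the results, from GENCODE M21 (mm10), 5′ to 3′, 12 bases before the ATG to 15 after it, with ATGs in capitals. For Akt1s1 the start of the longest transcript, an inner in-frame start used by shorter ones and an upstream pair of out-of-frame ATGs are given.
Mtor start: cctcagggcaagATGcttgggacgggtcct
Tsc2 start: gccctgcccaccATGgccaaaccaacaagc
Rictor start: aaacccgtcaatATGgcggcgatcggccgc
Rheb start: caggccaccaagATGcctcagtccaagtcc
Akt1s1 start of the longest transcript: gtaggaggacccATGctcgcagcccaactc
Akt1s1 inner start: cgcggggctcggATGgcgtctgggcggcca
Akt1s1 ATGs before the inner start: ttggtggaagccATGttaATGcggggcact

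Upstream ATGs in the 5′ UTR separate the 9 genes. Mtor, Rictor, Tsc2 and the longest Akt1s1 transcript had none, Rptor and Rps6kb1 had 1, Rheb 3, Tsc1 4 and Mlst8 6, where 55.4% of all genes had at least 1. Among the short upstream reading frames, one of 18 nt opens 305 nt before the Mlst8 start and is not printed. Those printed open 34 nt before the Rheb start and 64 nt before the Tsc1 start (ATG and stop in capitals).
Rheb upstream frame: ATGtggttgggtcggggcTGA
Tsc1 upstream frame: ATGaagagctgtgcaaaccttTAG
The single upstream ATG of Rps6kb1 opens a frame that runs past the CDS start. None of the 9 mRNAs began with a C followed by 4 pyrimidines, the start of a terminal oligopyrimidine motif, against 2.40% of all genes. No 25-nt word of any member's CDS was found in a transcript of another gene. Of the words of the whole transcript, 3.86% were shared for Rheb, 0.381% for Rps6kb1 and 0.237% for Rictor. In the Rheb 5′ UTR 0.824% were. Genes on the opposite strand overlap the Rptor CDS over 84 nt (Rptoros) and the longest Akt1s1 5′ UTR over 89 nt (Tbc1d17), and in the 3′ UTRs they overlap Mlst8 over 1586 nt (Bricd5), Tsc2 over 693 nt (Pkd1) and Rps6kb1 over 155 nt (Rnft1).

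Rheb carried by far the most footprints per length. Its CDS level, in reads per kilobase of CDS per 1000000 aligned reads (RPKM), was 128 in WT (counting interval 123 to 134), 119 in Chx and 59.1 in Harr, above 91.6% to 93.6% of genes with at least 10 CDS reads. The mTORC1 inhibitor Akt1s1 followed with 24.1 RPKM in WT, then the shared subunit Mlst8 with 20.0 and the kinase Mtor with 11.8. Tsc2 stood at 9.94 and Rptor at 8.85, close to the median of all genes, which was 9.13 in WT. At the low end Rps6kb1 had 5.41 RPKM in WT and Tsc1 5.25, whose intervals overlapped, and Rictor had 3.72, below both. In Chx the order was the same except that Tsc1, at 5.90 RPKM, stood above Rps6kb1, at 5.39, again with overlapping intervals. In Harr, Mtor (14.6) and Tsc2 (11.6) stood above Rptor (9.0) and Mlst8 (8.36), which did not separate, and Rictor (5.26), Rps6kb1 (4.94) and Tsc1 (4.35) overlapped from one to the next. Without the exon that holds the start codon, the Harr level fell to 36.3 RPKM in Rheb, 18.8 in Akt1s1, 5.66 in Mlst8 and 2.28 in Rps6kb1, which then stood below Tsc1 (4.34) and Rictor (5.23).

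**Figure D1:**
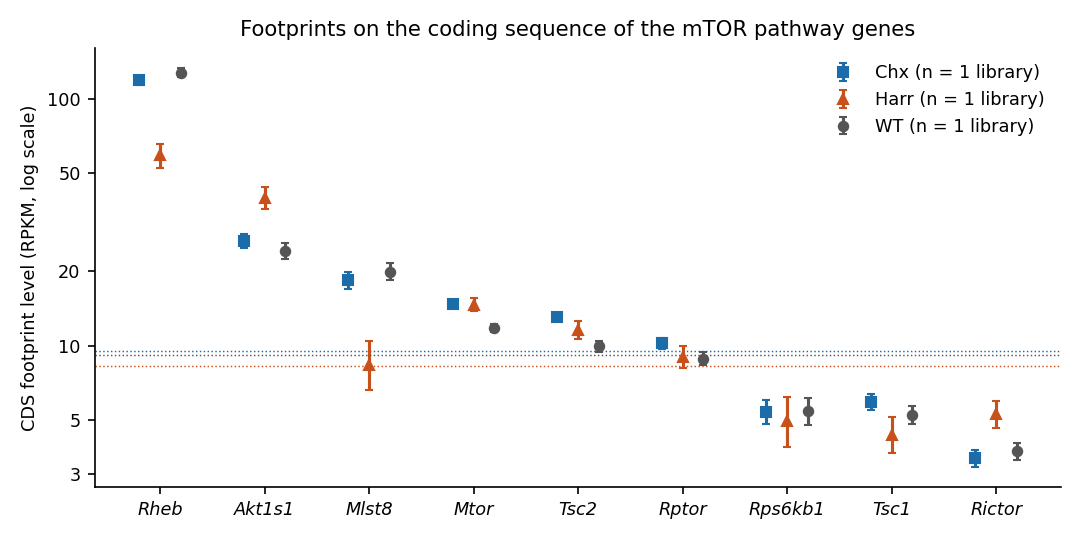
CDS footprint level (RPKM, log scale) of each gene in the Chx, Harr and WT libraries, ordered by WT; bars are 95% Poisson counting intervals and dotted lines the median of all genes with at least 10 CDS reads. Rheb lies at 59.1 to 128 RPKM, while Rictor, Tsc1 and Rps6kb1 lie at 3.48 to 5.90 RPKM.

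Within the complexes the partners were not at equal footprint levels. In WT the CDS level of Rptor was 0.753 times that of Mtor (counting interval 0.701 to 0.809) and that of Rictor 0.316 times (0.289 to 0.346), so the mTORC1 scaffold stood 2.38 times (2.15 to 2.64) above the mTORC2 scaffold. This Rptor:Rictor ratio of levels was 2.93 in Chx and 1.71 in Harr. Mlst8 was above Mtor in WT, at 1.70 times (1.55 to 1.86), and in Chx, at 1.25 times, and below it in Harr, at 0.571 times (0.449 to 0.717). Their CDSs differ in length, 981 and 7650 nt. Genes of these length classes had median Harr–Chx log2 ratios of −0.54 and 0.66, and the part of length in the change was not tested. Of the inhibitory pair, the GTPase-activating subunit Tsc2 was above its partner Tsc1 in every library, at 1.89 times in WT (1.72 to 2.09), 2.21 times in Chx and 2.66 times in Harr.

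The first comparison asks how each treatment moved the footprints on the coding sequences. A CDS was called higher or lower where its reads per 1000000 CDS reads differed by at least 2-fold and the 95% counting interval of the log2 ratio excluded 0. Between Harr and Chx, Rictor and Akt1s1 were called higher in Harr, 2 of 9 members, where 4.63% of 11459 genes were called higher and 13.7% lower. The median log2 ratio of the members was 0.38, against −0.05 over all genes. Between Harr and WT the same pair was called, where 5.30% of genes were higher and 14.3% lower, with a member median of 0.54. Rictor was close to the threshold there, at 1.01, and was not called with median-of-ratios size factors (0.996) or on the union of all transcripts' segments (0.992). Between Chx and WT none of the 9 was called in either direction, as for nearly all genes, of which 0.201% were higher and 0.122% lower in Chx.

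CDS length moved with these ratios, so each gene was set beside genes of its own length class. Mtor (7650 nt of CDS) held 4015, 1092 and 2717 CDS reads in Chx, Harr and WT, a log2 ratio between Harr and Chx of 0.54 ± 0.05 (counting SE), under the 0.66 median of the 836 genes with a CDS over 4000 nt. Rptor (0.37) and Tsc2 (0.38) were also under that median, and Rictor, with 638, 263 and 576 reads in Chx, Harr and WT, was above it at 1.14 ± 0.11. The short Rheb (2368, 320 and 2152 reads; −0.46 ± 0.09) and Mlst8 (645, 80 and 592 reads; −0.58 ± 0.17) were near the medians of their classes, −0.68 and −0.54. Rps6kb1 (304, 76 and 258 reads) stood at 0.43 ± 0.19 against a class median of −0.07. Tsc1 (735, 148 and 553 reads) stood at 0.11 ± 0.13 against 0.36 (all ratios Harr against Chx). Akt1s1 was the member farthest from its class, at 1.13 ± 0.09 against −0.54, above 98.6% of the 3144 genes of that class, and this value depended on the transcript used, as described with its inner start. The exon that holds the start codon weighed on the short members. Without it, in a setting added after the values were seen, the Harr–Chx ratio of Rps6kb1 turned to −0.46 and that of Akt1s1 to −0.10. Rheb, at −1.14, was called lower, where 13.7% of all genes were with that exon kept. The scaling stayed that of all CDS reads, start-codon exons included, and its part in these values was not tested. Rictor kept its call against Chx, at 1.14, and fell just under the threshold against WT, so that 1 and 0 members were called higher against Chx and WT, beside 6.53% and 6.94% of genes. Scaled to 1000000 aligned reads in place of CDS reads, the Harr–Chx ratios of all genes shifted by −0.55. On that scale 0 members were called higher and 2 lower (Mlst8 and Rheb), and 0.559% and 31.2% of genes.

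Between Chx and WT, Tsc2 had the largest CDS ratio of the members, 0.36 ± 0.05, above 91.4% of its length class, and Mtor had 0.29 ± 0.04. Their complex partners Tsc1 (0.13 ± 0.08), Rptor (0.17 ± 0.06) and Mlst8 (−0.15 ± 0.08) lay lower, and none reached the 2-fold threshold. Rheb was at −0.14 ± 0.04.

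The second comparison asks how the reads of these genes were divided between 5′ UTR and CDS in the harringtonine library. The 5′ UTR share was higher in Harr in each of the 8 members with at least 10 5′ UTR reads in the pair. The measure compares 5′ UTR with CDS reads as a log2 odds ratio, called at 1 or more in size with an interval that excluded 0. Between Harr and Chx 8 of 8 were called higher in Harr and between Harr and WT again 8 of 8. The background was 89.4% and 94.3% of genes, so the counts alone do not set the members apart. Their medians were 2.11 against Chx and 3.45 against WT, beside 2.46 and 3.23 over all genes.

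The members differed widely in the size of this change. Mlst8 had 18, 30 and 19 5′ UTR reads in Chx, Harr and WT and the largest change against Chx on the longest transcript, 3.72 ± 0.46. Rheb, with 832, 882 and 350 5′ UTR reads in Chx, Harr and WT, reached 2.97 ± 0.11 and had more reads in the 5′ UTR than in the CDS in Harr, 2.76 to 1, as no other member did on its longest transcript. Mtor, with 70, 132 and 11 reads, changed by 2.79 ± 0.22 and Tsc2, with 62, 85 and 5 reads, by 2.50 ± 0.25. Rps6kb1 (52, 43 and 15 reads), Rptor (362, 280 and 226) and Tsc1 (125, 72 and 104) were lower, at 1.72 ± 0.35, 1.68 ± 0.14 and 1.52 ± 0.25. Rictor, whose annotated 5′ UTR is only 20 nt long and held 19, 16 and 3 reads, was the lowest at 1.04 ± 0.49. Against WT the order changed: Tsc2 (5.37 ± 0.64) and Mtor (4.84 ± 0.45) came first, above 95.2% and 89.6% of genes, and Tsc1 (1.37 ± 0.26) last, above 7.25%. These ranks depended on the transcript segments counted. On the union of all transcripts' segments of a gene, Tsc2 fell to 1.99 against WT, below Mtor (4.85), Rheb (4.08), Rictor (3.37) and Rps6kb1 (2.40). Against Chx on that union, Mlst8 fell to 1.68, below Rheb (2.97) and Mtor (2.79), and Tsc2, at 0.58, was not called.

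**Figure D2:**
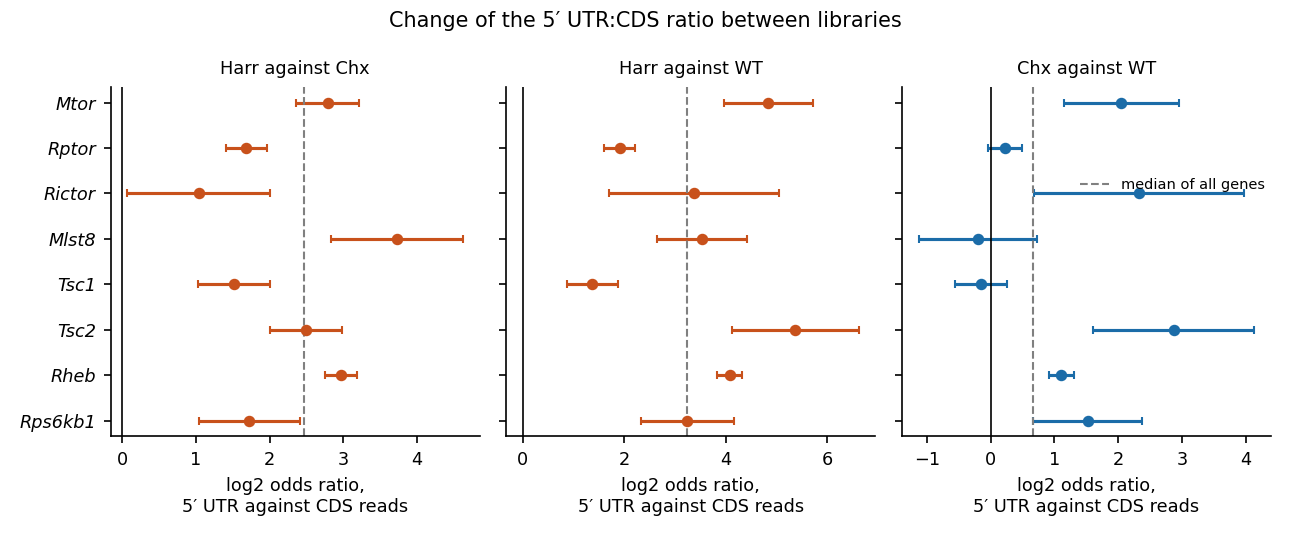
Change of the 5′ UTR:CDS ratio, as a log2 odds ratio, for the 8 members with enough reads, in each pair of libraries; bars are 95% counting intervals, the solid line is no change and the dashed line the median of all genes. In Chx against WT, Mtor, Rictor and Tsc2 lie at 2.05 to 2.87, while Rptor, Mlst8 and Tsc1 lie between −0.20 and 0.23.

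The Chx library, with cycloheximide for 2 min before harvest, also had a higher 5′ UTR share than WT in some members. Between Chx and WT, 5 of 8 members were called higher in Chx, beside 30.3% of genes, and the member median was 1.32 against 0.67. Tsc2 changed most, 2.87 ± 0.64, above 98.2% of genes, followed by Rictor (2.33 ± 0.84, on 19 and 3 reads), Mtor (2.05 ± 0.46), Rps6kb1 (1.52 ± 0.44) and Rheb (1.11 ± 0.10). On the union of all transcripts' segments Tsc2 fell to 1.41, below Rictor (2.33) and Mtor (2.06), and Rps6kb1 (0.76) was no longer called, which left 4 of 9 members called beside 26.8% of genes. Rptor (0.23 ± 0.14), Tsc1 (−0.15 ± 0.21) and Mlst8 (−0.20 ± 0.48) were not called, and the interval of Mlst8 reached from −1.13 to 0.73. The 3 members at the top have no upstream ATG, whereas Rps6kb1 and Rheb were called with 1 and 3 and each of the 3 that were not called has at least 1. Akt1s1, also without one on its longest transcript, had too few 5′ UTR reads there. Over all genes the median change was 0.97 without an upstream ATG (4320 genes, 42.4% called higher) and 0.47 with at least 1 (6042 genes, 21.6%). On their longest transcripts the 3 members at the top also have shorter 5′ UTRs, 20 to 119 nt, than the 3 that were not called, 222 to 661 nt. A shorter Mlst8 transcript, with a 5′ UTR of 97 nt, gave 0.61 ± 0.42 on 32 reads in Chx and 19 in WT. The part of length in the difference was not tested.

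Where in the 5′ UTR the reads lay could be read for 7 members, because other transcripts of the gene, or an intron, split the region and each read counts at a single base. In Mtor the Harr reads lay almost wholly beside the start codon. The last 14 nt before its start codon, which open the second exon (chromosome 4, 148452257 to 148452270), held 38 of 70 reads in Chx, 123 of 132 in Harr and 10 of 11 in WT. Their density in Harr was 901 RPKM, against 20.9 over the 162 nt of CDS that follow in that exon. The other 77 nt, in the first exon, held 32, 9 and 1 reads in Chx, Harr and WT. The rise of the Mtor 5′ UTR in Harr over Chx thus lay in these 14 nt, at a log2 odds ratio of 3.56 ± 0.27, where the first exon was at 0.10 ± 0.53, while the rise of Chx over WT was 1.31 ± 0.50 in the 14 nt and 3.87 ± 1.21, on 32 and 1 reads, in the first exon.

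In Tsc2 most 5′ UTR reads also lay in the stretch before the start codon. These 24 nt (chromosome 17, 24632083 to 24632106, minus strand) held 51 of the 62 5′ UTR reads in Chx, 67 of 85 in Harr and 4 of 5 in WT. The other 95 nt held 11, 18 and 1 reads in Chx, Harr and WT. Their change relative to the CDS between Harr and Chx, 2.73 ± 0.55, was about as large as the 2.43 ± 0.27 of the 24 nt. Downstream, the first 23 nt of the CDS held 115, 22 and 11 reads in Chx, Harr and WT, and the next 63 nt 116, 4 and 46. In the Chx library the start of the Tsc2 CDS was therefore the densest stretch of those measured in the gene's 5′ UTR and first coding exon, at 140 RPKM, against 15.8 in WT.

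Rheb had most of its 5′ UTR reads in the part nearer the start codon. The last 192 nt held 798 of 832 reads in Chx, 849 of 882 in Harr and 333 of 350 in WT, and the first 196 nt the remaining 34, 33 and 17. The densities of the last 192 nt were 116, 453 and 57.4 RPKM. Besides the footprints of the annotated start, this stretch holds the upstream ATGs 102 and 34 nt before it, and reads of these frames cannot be told apart from those of the start in these tables. The share within the stretch was alike in the libraries, 95.1% to 96.3%.

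In Rps6kb1 the last 59 nt held 46 of 52 reads in Chx, 42 of 43 in Harr and 15 of 15 in WT. Mlst8 had 10, 25 and 15 of its 18, 30 and 19 reads in the last 10 nt alone, at 256 RPKM in Harr, and 8, 5 and 4 in the other 585 nt of the long annotated 5′ UTR. A shorter Mlst8 transcript has a separate upstream exon of 67 nt that held 21, 41 and 4 reads in Chx, Harr and WT, and with that transcript the change between Harr and Chx was 4.06 ± 0.35. Over all Mlst8 transcripts but the longest it ran from 1.32 to 4.21.

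Rptor and Tsc1 had most or much of their 5′ UTR reads far from the start codon. In Rptor the 549 nt farthest upstream (chromosome 11, 119603149 to 119603697), which hold its upstream ATG, had 190, 173 and 162 reads in Chx, Harr and WT, and the last 112 nt 172, 107 and 64. Per length the last 112 nt were the denser part in every library, at 43.0, 97.9 and 18.9 RPKM against 9.69, 32.3 and 9.76. Between Chx and WT those 112 nt were at 0.97 ± 0.22 relative to the CDS, just short of a call, and the upstream part at −0.22 ± 0.16. In Tsc1 the middle exon of the 5′ UTR (63 nt, chromosome 2, 28652169 to 28652231), which holds 2 of the 4 upstream ATGs, had 79, 27 and 44 reads in Chx, Harr and WT, and the last 80 nt had 29, 30 and 50. Per length the last 80 nt of Tsc1 were at 10.1, 38.4 and 20.7 RPKM in Chx, Harr and WT, against 18.9, 30.3 and 12.6 in the rest. Relative to the CDS the last 80 nt were lower in Chx than in WT, by −1.19 ± 0.34, and the rest was at 0.41 ± 0.26.

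**Figure D3:**
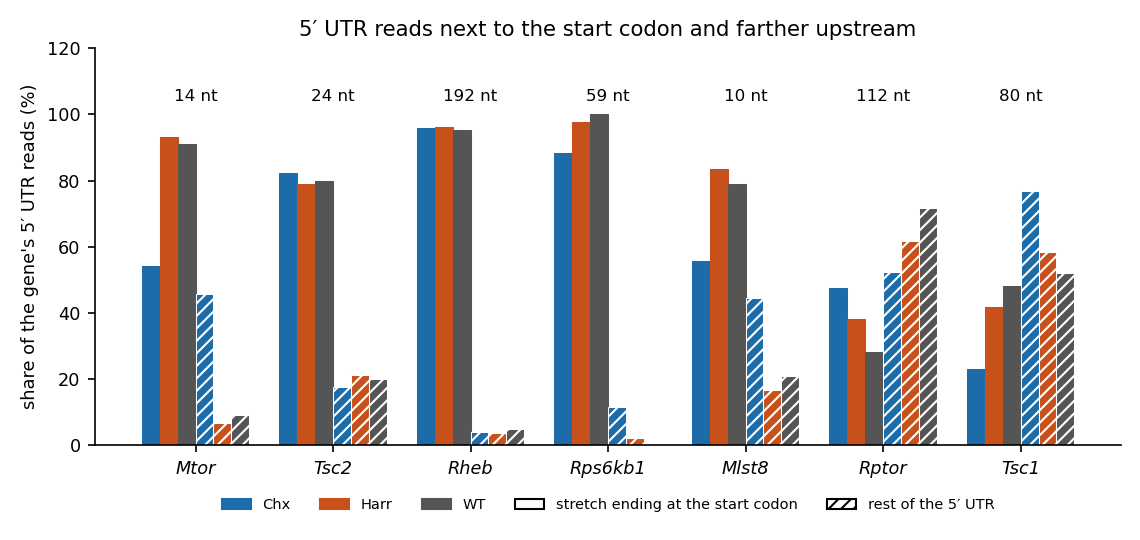
Share of each gene's 5′ UTR reads (percent) in the stretch that ends at the start codon (solid bars, its length in nt above) and in the rest of the 5′ UTR (hatched bars), for the Chx, Harr and WT libraries. In Harr the last 14 nt of Mtor hold 93.2% of the reads, whereas in Rptor the last 112 nt hold 38.2% and in Tsc1 the last 80 nt 41.7%.

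Akt1s1 could not be assessed on its longest transcript, whose 5′ UTR of 152 nt held 3, 1 and 2 reads in Chx, Harr and WT. The reads lay farther down, in what that transcript counts as CDS. Nucleotides 82 to 152 of its first coding exon (chromosome 7, 44849224 to 44849294) held 99, 225 and 79 reads in Chx, Harr and WT, and the 7 nt before the inner start codon, in the next exon, held 57, 40 and 19. The 382 nt of that exon from the inner start onward held 624, 73 and 483. In Harr 62.7% of the reads of the longest CDS were thus in its first exon (240 of 383; 57.7 to 67.4), against 12.3% in Chx and 13.5% in WT. The 71-nt stretch contains ATGs at nucleotides 128 and 134, printed above, which are not in frame with the inner start.

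Counted on the APPRIS principal transcript, which starts at the inner ATG, Akt1s1 no longer had a higher CDS in Harr. Its CDS reads were then 768, 103 and 604 in Chx, Harr and WT, log2 ratios of −0.47 against Chx and −0.40 against WT, close to the class median. The 5′ UTR:CDS change became 2.37 ± 0.25 against Chx and 3.16 ± 0.29 against WT, both called, and 0.79 between Chx and WT, not called. The 5′ UTR of that transcript held 86 reads in Harr and leaves out the stretch with 225. Another transcript with the same CDS, whose 5′ UTR held 161, 266 and 102 reads in Chx, Harr and WT, gave 3.62 ± 0.21 against Chx, 3.92 ± 0.23 against WT and 0.31 ± 0.20 between Chx and WT. With the principal transcript of every gene, only Rictor of the 9 members was called higher on the CDS. On the longest transcripts 4.63% (Harr–Chx) and 5.30% (Harr–WT) of genes were. The choice of the principal transcript was made after the values were seen.

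**Figure D4:**
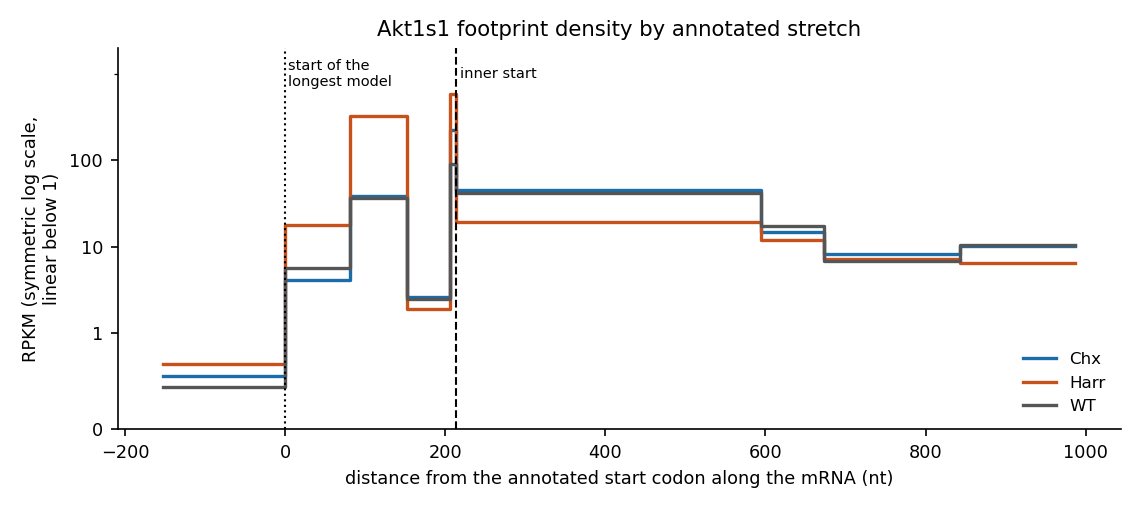
Akt1s1 footprint density (RPKM, symmetric log scale) along its longest transcript, by annotated stretch; the dotted line is the annotated start codon of that transcript and the dashed line the inner start. In Harr the density is 325 RPKM between nucleotides 82 and 152 and 586 RPKM in the 7 nt before the inner start, and 19.6 RPKM in the 382 nt that follow it.

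First coding exons held a larger share of CDS reads in Harr in Rheb and Rps6kb1 also. In Rheb the first 52 nt of the CDS held 44.4% of CDS reads in Harr (142 of 320; Wilson interval 39.0 to 49.9), 11.2% in Chx and 8.04% in WT, over 9.37% of the CDS length. In Rps6kb1 the first coding exon held 57.9% in Harr (44 of 76; 46.7 to 68.4), 21.4% in Chx and 19.4% in WT. Mlst8 differed less, with 41.3% in Harr (33 of 80; 31.1 to 52.2), 31.9% in Chx and 34.6% in WT, and the intervals overlapped. Among the long members the first coding exon of Tsc1 held 3.38% of CDS reads in Harr (5 of 148; 1.45 to 7.66), 11.2% in Chx and 6.51% in WT, and that of Mtor 3.02%, 6.58% and 3.90%. Tsc2 was also lower in Harr (4.63%) than in Chx (10.7%), with 4.97% in WT. Rptor had 5.97% in Harr (21 of 352; 3.93 to 8.95), 9.50% in Chx and 10.6% in WT, where the intervals of Harr and WT only just overlapped. For Tsc1, Mtor and Tsc2 the intervals of Harr and WT overlapped too, as did those of all 3 libraries for Rictor (1.52% in Harr, on 4 reads).

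The third comparison asks how the reads lay along the long coding sequences in Harr, and the part of run-off in the differences was not tested. Ribosomes that had passed the start before harringtonine was added move on during the 2 min, so the first part of the CDS empties first. In the 5 members with a CDS over 2400 nt, the share of CDS reads within about 1200 nt of the start codon was lower in Harr than in Chx in 5 of 5, where 64.0% of 2375 such genes were called lower, and lower than in WT in 5 of 5, where 66.5% were. Tsc1 fell most, from 56.5% in Chx (415 of 735) and 49.9% in WT (276 of 553) to 22.3% in Harr (33 of 148), a log2 odds ratio against Chx of −2.16 ± 0.30, at percentile 9.98 of these genes, and −1.78 ± 0.31 against WT, at percentile 27.1. Tsc2 went from 37.3% in Chx and 39.0% in WT to 18.3% in Harr, and Rptor from 44.5% and 47.1% to 24.4%. Rictor (33.1%, 37.5% and 19.0% in Chx, WT and Harr) and Mtor (28.8%, 30.2% and 16.3%) changed by −1.06 ± 0.26 and −1.05 ± 0.13 against Chx, and in that comparison all but Tsc1 were near the middle of the genes, between percentiles 44.0 and 63.9. Between Chx and WT 0 of 5 were called, as for most genes, of which 0.446% were higher and 0.852% lower. With the boundary at 1800 nt, 2 of 5 remained called in each comparison, Tsc1 and Tsc2, beside 49.2% of genes against Chx and 52.5% against WT.

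From 1800 nt onward the ratio of Harr to Chx exceeded that of the first bin in every bin of the 5 genes. From 0 to 600 nt the log2 ratio of Harr to Chx, per 1000000 CDS reads, was −1.15 in Mtor, −1.10 in Rptor, −1.41 in Tsc1, −0.61 in Tsc2 and 0.51 in Rictor. On this scale it was above 0 from 600 nt onward in Mtor and Rptor, from 1200 nt in Tsc1 and from 1800 nt in Tsc2. Tsc2 held 82, 29 and 35 reads in Harr in its first 3 bins of 600 nt. Against WT its bin from 1200 to 1800 nt was at 0.069, so that Tsc2 and Tsc1 each had their first 2 bins below 0 in that pair. Rictor was the only one of the 5 above 0 against Chx in every bin, and its first 2 bins, at 0.51 and 0.22, were its lowest. The side of 0 depended on the scaling. Scaled to aligned reads, the values shift by −0.55 against Chx and −0.51 against WT, which leaves the order of the bins within a gene as it is. That shift takes the first 2 Rictor bins below 0 against Chx, as it does at least 1 bin past the positions named above in each of Mtor, Rptor, Tsc1 and Tsc2. Each exon was placed whole, by its midpoint.

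**Figure D5:**
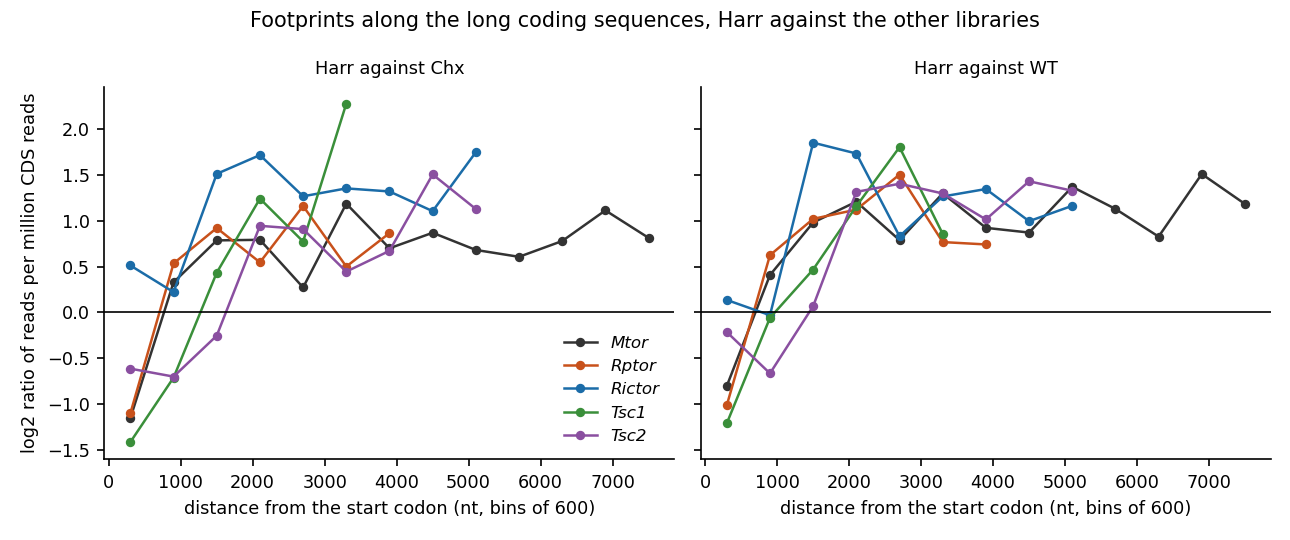
Log2 ratio of reads per 1000000 CDS reads, Harr against Chx (left) and Harr against WT (right), in bins of 600 nt along the CDS of the 5 members longer than 2400 nt; each exon is placed by its midpoint and points have no replicate error. At this scaling the first bin is below 0 in Mtor, Rptor, Tsc1 and Tsc2 and above 0 in Rictor in both panels, and scaling to aligned reads takes that Rictor bin below 0 too.

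The 3′ UTRs of these genes held few reads, from 0 to 63 per gene and library. Rheb had the most, 26, 63 and 54 in Chx, Harr and WT. Relative to the CDS they were called higher in Harr than in Chx in 5 of the 5 members with at least 10 such reads in the pair, where 86.5% of genes were, with a member median of 3.11 against 3.76 over all genes. Against WT 4 of 4 were called higher in Harr, where 79.8% of genes were, with medians of 2.97 and 2.59. The median change of Chx against WT was −0.93 both over the 3 members with enough reads and over all genes, and 1 of 3, Rheb (−1.18 ± 0.34), was called lower, beside 38.9% of genes. A higher UTR:CDS read ratio in Harr was thus measured on both sides of the CDS.

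The 67 other genes of the pathway, grouped by role, were all found. On the CDS, between Harr and Chx, 1 of the 64 with enough reads was called higher and 11 lower, beside 4.63% and 13.7% of all genes, with a median of −0.14. The gene called higher was Rhebl1, a close relative of Rheb, with 71, 36 and 59 CDS reads in Chx, Harr and WT and a log2 ratio of 1.45 ± 0.29; Rheb itself stood at −0.46. Read against the same shares, among the 28 amino acid sensing genes tested 6 were lower and 0 higher, with the lowest ratio in Lamtor3, a subunit of the lysosomal Ragulator scaffold, at −1.99 ± 0.26, and the highest in the GTPase Rragd, at 0.60 ± 0.18. Among the 17 targets 4 were lower, among them the ribosomal protein gene Rps6 (1361, 66 and 1303 CDS reads in Chx, Harr and WT, −1.93 ± 0.18) and the cap-binding factor gene Eif4e (−1.85 ± 0.22), while Eif4b was at 0.80 ± 0.05. These shares are over all CDS lengths. Lamtor3, with 375 nt of CDS, is in a length class with a median of −0.68. Eif4e (654 nt) and Rps6 (750 nt) are in one with a median of −0.54. In the growth factor and energy arm Akt2 was lower, at −1.29 ± 0.30, and the insulin receptor substrate Irs1 was at 0.85 ± 0.07. Of the 6 tested mTORC partners none was called against Chx. Among those with at least 200 CDS reads they ran from the chaperone gene Telo2 at −0.62 ± 0.15 to the mTORC2 subunit Prr5 at 0.87 ± 0.21. Deptor, an inhibitor of mTOR with only 3 CDS reads in Harr, was at −1.18 ± 0.80. Against WT, with 55 reads there, Deptor was called lower, at −1.84 ± 0.80, where 14.3% of all genes were.

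The 5′ UTR:CDS ratio of these other genes was called higher in Harr than in Chx in 51 of 57, beside 89.4% of all genes, with a median of 2.55. Eif4e (127 5′ UTR reads in Harr, 71 in Chx; 5.11 ± 0.31) and Lamtor3 (193 and 129; 4.99 ± 0.31) were the highest in their groups, Telo2 (2.96 ± 0.22) among the partners and Ddit4l (3.70 ± 1.14, on 10 reads in each library) in the growth factor arm. Between Chx and WT 18 of 57 were called higher, beside 30.3% of all genes, with a median of 0.71. The S6 kinase paralog Rps6kb2 had few reads, 113, 12 and 95 on the CDS in Chx, Harr and WT, a level of 2.16 RPKM in WT beside the 5.41 of Rps6kb1. Tbc1d7, the third subunit of the TSC complex, was at 15.9 RPKM in WT, above both Tsc1 and Tsc2, and the mTORC2 subunit Mapkap1 at 7.72, above Rictor. Deptor was at 1.48 RPKM in WT, with 55 CDS reads there, 42 in Chx and 3 in Harr.

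The genes whose levels and 5′ UTR:CDS ratios over the 3 libraries lay nearest to those of Mtor, among 7752 genes with enough reads and by Euclidean distance over these 6 log2 values, were Gcn1l1, Ranbp6 and Astn2, at distances of 1.17 to 1.39. Nearest to Rheb were Sar1a, Gnai1 and Zfp428, at 0.586 to 0.735. Sar1a, for example, had 104, 48.8 and 108 RPKM in Chx, Harr and WT, and 5′ UTR:CDS read ratios of 0.298, 3.27 and 0.140, beside 0.351, 2.76 and 0.163 for Rheb.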

How the data were processed

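Per the file headers, the authors assigned reads of 25 to 100 nt by their 5′ end, with 0 as the offset, on the mm10 genome, per exon segment of each transcript. The study's methods describe, for the search for reading frames, a P-site set by an offset from the 3′ end; had these tables been counted so, reads at start codons would fall in the CDS. The headers were followed. The deposited counts are unnormalized; the deposited coverage signal is the count per nucleotide and the deposited RPKM the count per kilobase and 1000000 reads, and both were left unused in favour of RPKM recomputed from the counts. Samples were grouped by their recorded treatment; their free-text descriptions name fractions of another experiment and were not used. Micrococcal nuclease was used for digestion, per the study's methods. Segments were summed over the longest transcript of each gene (GENCODE M21; 99.1% of 142446 identifiers matched). Log2 ratios carry 0.5 added reads and counting errors, levels exact Poisson and shares Wilson 95% intervals; genes needed 100 CDS reads over the libraries for the CDS ratio and 10 5′ UTR reads in the pair for the 5′ UTR:CDS change. A count of 3 equals 0.0840, 0.308 and 0.0993 reads per 1000000 in Chx, Harr and WT. The other pathway genes named are the extremes of each role group by rule, with fixed paralogs and partners. The 9 genes and all lists were chosen with earlier results of these data known. Calls were tested on simulated counts. Python 3.11.15, pandas 2.3.3, numpy 2.4.6 and scipy 1.17.1 were used.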

Additional observations from a re-analysis of the deposited data

How the results depend on the processing

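No paired analysis was possible because each treatment has 1 library; for the same reason no library could be left out. Results were recomputed under 13 alternatives, of which the APPRIS principal transcript was chosen after seeing the data. With it the Akt1s1 CDS ratio reversed, to −0.47 against Chx and −0.40 against WT. In both comparisons 1 member in place of 2 was called higher in Harr. On the longest transcripts 4.63% (Harr–Chx) and 5.30% (Harr–WT) of all genes were. The Harr–WT median of the CDS ratio went to 0.39, and the Harr–Chx median of the 5′ UTR:CDS change to 2.37. On the union of all transcripts' segments the members' medians of the 5′ UTR:CDS change were 1.64 (Harr–Chx), 1.99 (Harr–WT) and 0.76 (Chx–WT). Tsc2 was no longer called there between Harr and Chx. On the CDS of that union 1 member was called higher between Harr and WT, beside 4.83% of genes, since Rictor fell just under the threshold. Rictor also fell under it with median-of-ratios size factors, which shifted the Harr–WT median of all genes by −0.018. Scaled to all aligned reads, 0 members were called higher and 2 lower in Harr against either library, with medians of −0.17 (Harr–Chx) and 0.026 (Harr–WT). This scaling shifted the median of all genes by −0.55 (Harr–Chx) and −0.51 (Harr–WT), so these counts alone do not set the members apart. The Harr–Chx shares of all genes are given above. A fold threshold of 1.5 called 4 members higher and 2 lower between Harr and WT, beside 19.5% and 24.3% of all genes. Without the exon that holds the start codon the median level in Chx was 11.9 RPKM. In the same setting, added for the CDS ratio after seeing the data and still scaled to all CDS reads, the medians were 0.23 (Harr–Chx) and 0.29 (Harr–WT). Akt1s1 reversed to −0.10 against Chx, and 1 (Harr–Chx) and 0 (Harr–WT) members were called higher, beside the shares given above. Rheb was called lower in both, where 13.7% (Harr–Chx) and 14.3% (Harr–WT) of genes were with that exon kept. The start-proximal medians were −1.86, −1.79 and 0.060 (Harr–Chx, Harr–WT, Chx–WT) with a boundary of 600 nt, where Rictor was no longer called against Chx. With 1800 nt they were −0.76 and −0.95 (Harr–Chx, Harr–WT), and 2 members were called lower in each, beside the shares given above. The cause of these moves was not tested. Low counts limit Harr most.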
